A study of Rattus norvegicus with 12 samples.

Results

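The Hox cluster genes were taken as all gene probes of the array whose gene name was Hoxa, Hoxb, Hoxc or Hoxd followed by a number. This gave 32 of 30367 gene probes, for 30 gene symbols, with 9 probes for Hoxa, 9 for Hoxb, 7 for Hoxc and 7 for Hoxd. Hoxc5 was among the genes with 2 probes. Hox genes without such a probe were not analysed here.

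Total RNA of cerebellar cultures enriched in neurons, from neonatal Sprague-Dawley rats of 1 day of age, was hybridised to arrays of long oligonucleotides read in 1 colour. The 6 control cultures received the solvent dimethyl sulfoxide, and the 6 other cultures received acetamiprid (ACE), a neonicotinoid insecticide, at 1 µM in the same solvent from day 2 to day 16 in vitro. Per the study's methods, both cultures of a replicate were seeded from a single lot of pooled cells of a single litter, so a replicate number stands for a litter. All cultures were grown from dissociated tissue, held neurons and glia together, and had left the embryonic stage at which the Hox pattern is laid down. The labelled tissue was checked against its markers: all 8 granule cell probes (among them Neurod1, Zic1, Pax6 and Cbln1) and all 9 Purkinje cell probes (among them Calb1 and Car8) were well above background on all 12 arrays.

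Hox genes encode homeodomain transcription factors that give cells along the head-to-tail axis their regional identity. They lie in 4 clusters, and a gene's place in its cluster follows the order in which the genes are switched on from hindbrain to tail, so low paralogue groups reach into the hindbrain and high groups mark the spinal cord, the lumbar and tail region and the limbs. The cerebellum grows mainly from rhombomere 1, the foremost segment of the hindbrain, which lies in front of the limit of Hox expression, and Hoxa2 is the gene whose expression reaches farthest forward.

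The mapped probes followed the known order within each cluster. On the array annotation's build (rn4, per the file headers), the Hoxa probes lay on the minus strand of chromosome 4. The Hoxb probes lay on the plus strand at chr10:84927734-85100009 (172 kb, from Hoxb13 to Hoxb1), the Hoxc probes on the plus strand at chr7:141691100-141798906 (108 kb, from Hoxc13 to Hoxc4), and the Hoxd probes on the plus strand at chr3:57285475-57379239 (93.8 kb, from Hoxd13 to Hoxd1). The Hoxb2 probe had no position in the files, and the probe named Hoxa9l lay between the Hoxa9 and the Hoxa11 probes. A gene annotation of this build was not used here, so the exon or untranslated part that a probe targets is not given.

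Each probe was 60 bases long. For the genes that the results turn on, the opening 30 bases of the probe are shown 5′ to 3′ in the sense of the transcript. Hoxa2 lay at chr4:80462757-80462816 (minus strand), Hoxd4 at chr3:57343883-57343942 (plus strand), Hoxb4 at chr10:85052841-85052900 (plus strand) and Hoxc4 at chr7:141798847-141798906 (plus strand). Hoxb2 is shown as the paralogue of Hoxa2, and Hoxb4 and Hoxc4 as those of Hoxd4.
Hoxa2: tgttttacaccgaacccaacaagcttctat
Hoxb2: gactccttccaatgaaatctcaggaataat
Hoxd4: atttcttctgtgataaaaagaaatgttttg
Hoxb4: agatggatccatgtttcatctttaatcatg
Hoxc4: ggtgttgtcttagcatggtacctgctgggt
The paralogues had unlike probes. Over all pairs of the 32 probes, the longest run of identical bases was 17 (Hoxa6 and Hoxb8) and the next was 11 (Hoxb8 and Hoxc12).

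The homeobox is the coding stretch that the family shares. A pattern of 14 bases from the coding sequence of the homeodomain's recognition helix (helix 3), with its variable bases left free, was searched on the probe's own strand and was chosen after the probe sequences had been seen. It covers a small part of the homeobox, so a probe elsewhere in it would not match. It stood in 3 of the 32 Hox probes and in 6 of all 30367 probes (0.0198%). The 3 probes are shown whole, with the matching letters in capitals.
Hoxc12: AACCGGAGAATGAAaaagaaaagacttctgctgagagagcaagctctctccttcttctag
Hoxd12: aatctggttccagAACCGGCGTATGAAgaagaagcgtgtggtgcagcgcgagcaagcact
Hoxd13: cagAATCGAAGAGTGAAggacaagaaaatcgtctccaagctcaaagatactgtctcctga
By contrast, the letters AATAAA, the usual signal for adding the poly(A) tail near the end of a transcript, stood in 9 of the 32 Hox probes (28.1%) and in 8.39% of all probes. The match is a description of the probes and says nothing about the level of a gene.

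Few Hox genes gave a signal in these cultures. The scanner software marks a spot as well above background when its signal exceeds the background by a set multiple of the background's spread. By this mark, 2 of the 32 Hox probes were detected on all 12 arrays, which is 6.25% of them beside 66.5% of all gene probes. These were Hoxa2, which patterns the hindbrain segments behind rhombomere 1 and the neural crest of the pharyngeal arches, and Hoxd4, which has its front limit in the caudal hindbrain. Another 5 probes were detected on 7 to 11 arrays, 7 on 4 to 6 arrays, 12 on 1 to 3 arrays and 6 on none. Thus 18 of 32 (56.3%) were detected on 3 arrays or fewer, beside 19.9% of all probes.

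Detection was spread thinly over all clusters. Hoxa13 and Hoxb4 were detected on 8 arrays, and Hoxa9, Hoxc4 and 1 of the Hoxc5 probes on 7. Hoxa3, Hoxb8 and Hoxc13 followed with 6 arrays each. The probes detected on no array were those of Hoxa6, Hoxa9l, Hoxb1, Hoxb7, Hoxc10 and Hoxd12, which come from all 4 clusters. For these genes the arrays give only an upper bound, since a probe that stays near background does not show that the RNA was absent.

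By position along the axis, the median number of arrays was 4 for the 12 probes of paralogue groups 1 to 4, 3 for the 7 probes of groups 5 to 8, and 2 for the 13 probes of groups 9 to 13. The probes detected on all arrays, 2 in number, were both in groups 1 to 4. The order was not regular from gene to gene, for Hoxb1 (0 arrays) and Hoxd3 (2 arrays) belong to the low groups, while Hoxa13 (8 arrays) and Hoxc13 (6 arrays) belong to the last. Hoxa13 acts at the tips of the limbs and in the genital tract, and Hoxc13 in hair follicles. No test was made over the probes, which are not replicates.

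**Figure D1:**
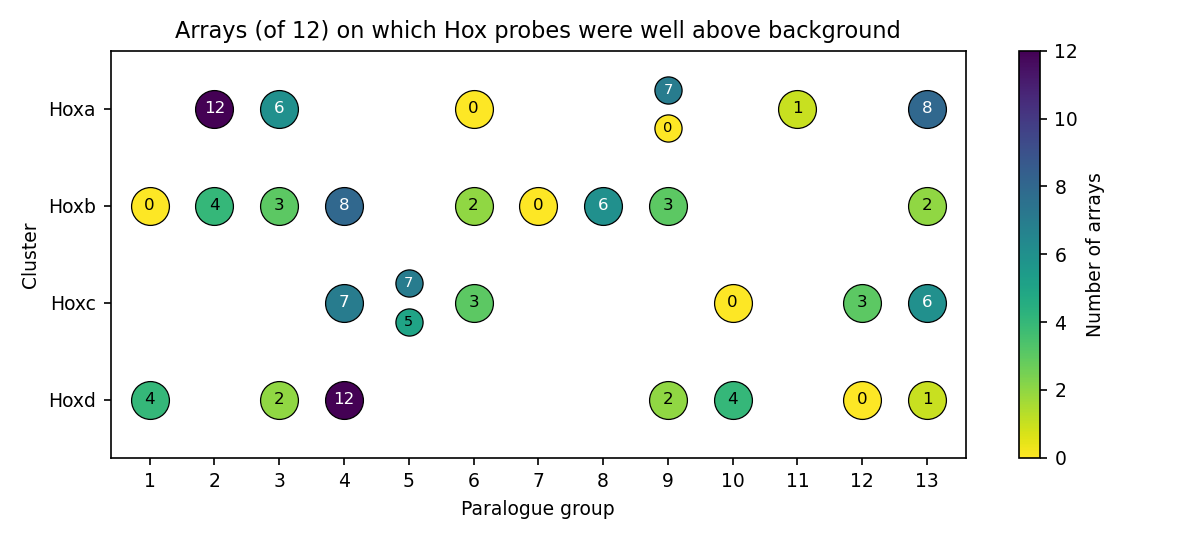
Number of arrays, of 12, on which each of 30 of the 32 Hox probes was well above background, by cluster (rows) and paralogue group (horizontal axis); small circles are pairs of probes that share a place. Hoxa2 and Hoxd4 stand at 12 arrays, and the other probes shown at 8 or fewer.

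The detection of Hox genes followed the array rather than the group. On the control arrays of replicates 1 to 6, 24, 8, 14, 2, 6 and 4 Hox probes were well above background. On the ACE arrays there were 22, 13, 10, 8, 7 and 4. The groups overlapped over nearly their whole range, with a median of 7 in control and 9 in ACE, and both arrays of replicate 1 were above all others.

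These same arrays had the most detected probes of any kind. In replicate 1, 87.7% to 88.5% of all gene probes were well above background, beside 68.8% to 80.2% on the other 10 arrays, and the 75th percentile of the signal was 4272 and 4384 beside 1803 to 3903 elsewhere. Replicate 1 was also the only one read with an older version of the scanner software. The Hox probes detected on both arrays of replicate 1 and on no other array were 6 of 32 (18.8%; among them Hoxb6, Hoxb13, Hoxd3 and Hoxd9), beside 4.41% of all probes. Probes detected on all 12 arrays cannot meet this, and they were 6.25% of the Hox probes and 66.5% of all. Among probes detected on 1 to 3 arrays, 83.3% of the Hox probes and 78.3% of all were on at least 1 array of replicate 1. Without replicate 1, the number of Hox probes detected on no array was 12 instead of 6.

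Against each array's own signal, the difference between arrays was smaller. This way of counting evens out the arrays by construction, since about the same share of all probes passes on each. Counting a probe as present when it lay above the 20th percentile of its array, 13 Hox probes were present on each array of replicate 1 and 11 to 18 on the others. By this measure 6 probes were present on all 12 arrays, namely Hoxa2, Hoxa13, Hoxb4, 1 of the Hoxc5 probes, Hoxd1 and Hoxd4. Litter, slide, scan and software of replicate 1 cannot be told apart.

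**Figure D2:**
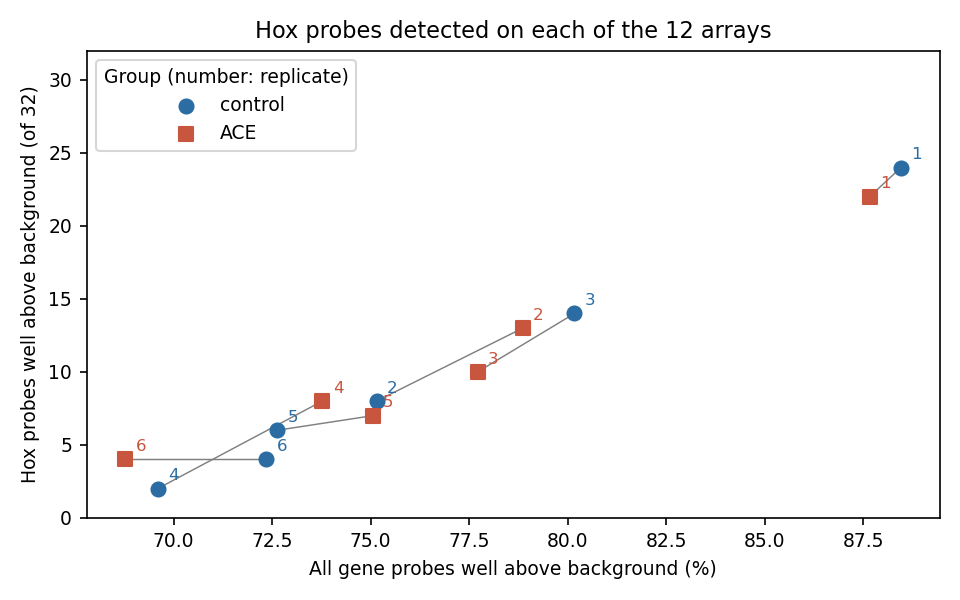
Number of Hox probes well above background (vertical axis, of 32) against the percent of all gene probes well above background on the same array; each point is an array, the number is its replicate, and a grey line joins both arrays of a replicate. The arrays with more detected probes of any kind also had more detected Hox probes, with replicate 1 at 22 and 24.

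Hoxa2 varied far more between replicates than with exposure. Each replicate was a litter and a slide of its own, and replicates 4 to 6 also shared a scan batch. Litter, slide and scan thus cannot be told apart. All values are log2 signals after quantile normalisation, and levels are compared within a probe only. In control the Hoxa2 signal was 8.77, 7.06, 8.77, 6.92, 5.67 and 5.81 in replicates 1 to 6. In ACE it was 8.84, 7.23, 8.89, 7.03, 6.19 and 5.85. Replicates 1 and 3 were high in both groups and replicates 5 and 6 were low in both, and the groups overlapped almost fully. The mean was 7.17 ± 1.36 (SD, n = 6) for control and 7.34 ± 1.29 (SD, n = 6) for ACE.

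The mean of a pair ranged from 5.83 to 8.83, a 7.98-fold range, while the arrays of a pair differed by 0.04 to 0.52 on the log2 scale. Replicates 4, 5 and 6, which shared a scan batch, had the lowest pair means (6.97, 5.93 and 5.83). Differences between replicates made up 99.1% of the variance of Hoxa2 over the 12 arrays. The median of this share was 92.0% over all probes tested and 72.4% over the 13 Hox probes tested. In total spread Hoxa2 stood near the top of the array: of the 20060 probes detected everywhere with no missing value, 0.244% had a larger SD over the 12 arrays. The replicates with the highest Hoxa2, 1 and 3, also had the brightest arrays (75th percentile 3377 to 4384, beside 1803 to 3171 in the other replicates). With a shift of each array to its 75th percentile in place of quantile normalisation, 99.6% of the variance lay between replicates. In RNA from a whole culture, fewer cells of a type and less RNA per cell cannot be told apart.

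**Figure D3:**
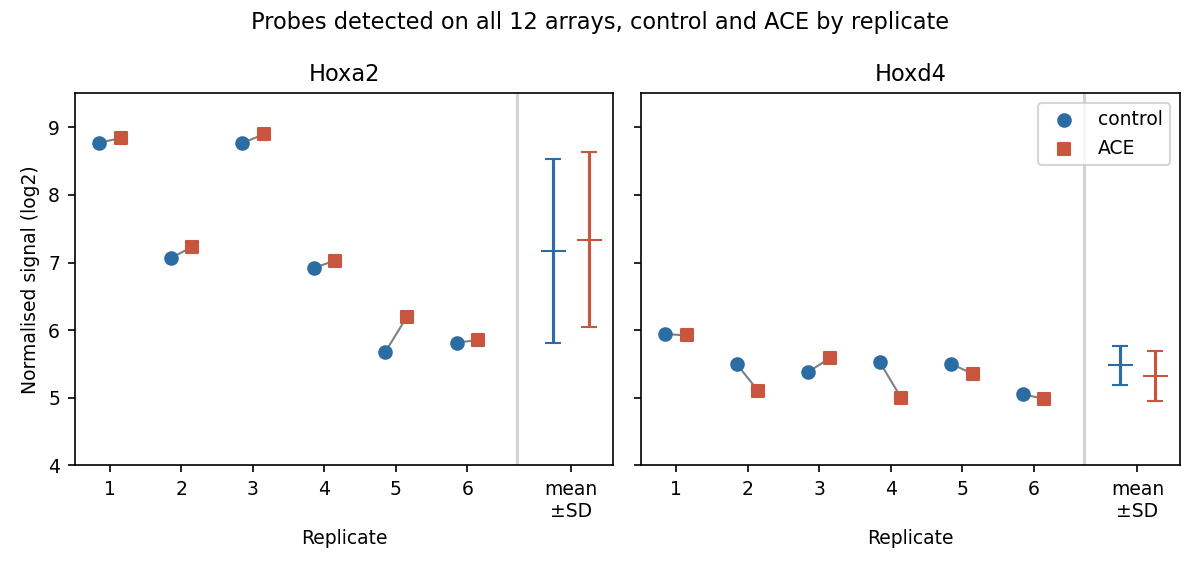
Normalised signal (log2) of Hoxa2 (left) and Hoxd4 (right) in each replicate, with control as circles, ACE as squares and a grey line between the arrays of a pair; the bars at the right of each panel are group means ± SD (n = 6). Hoxa2 pairs sit at levels from 5.83 to 8.83 with small steps within a pair, while Hoxd4 stays between 4.98 and 5.94.

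Hoxd4 varied less. Its signal was 5.94, 5.49, 5.38, 5.52, 5.50 and 5.05 in the control cultures and 5.92, 5.10, 5.59, 4.99, 5.35 and 4.98 in the ACE cultures. Replicate 1 was the highest and replicate 6 the lowest of the pair means, and the groups overlapped. The mean was 5.48 ± 0.29 (SD, n = 6) for control and 5.32 ± 0.38 (SD, n = 6) for ACE. Its pair means spanned a 1.89-fold range, and 78.7% of its variance lay between replicates. Of the 20060 probes detected everywhere, 35.4% had a larger SD.

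The Hox genes did not move as a block across the cultures. Between Hoxa2 and Hoxd4, Pearson's r over the 12 arrays was 0.64, and 10.9% of all pairs of probes detected everywhere had a higher r. It was 0.40 without replicate 1. Over the 6 pair means, which are the independent units, r was 0.75 (exact permutation p = 0.0847, two-sided) and Spearman's rho was 0.77 (exact permutation p = 0.103). After replicates 1 and 3, the farthest from the median of Hoxa2, were left out, r was 0.25 over the other 4 pair means, and the range of Hoxa2 was then narrower by construction. Without replicate 3 alone, r over the arrays was 0.71.

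Over the 78 pairs of the 13 tested Hox probes, the median r was -0.0041, with a range from -0.65 to 0.72 (Hoxa13 and Hoxc5). All pairs of tested probes had a median of 0.0065. The median was 0.15 for the 16 pairs within a cluster and -0.016 for the 62 pairs between clusters. The 12 arrays share litters, slides and scans in pairs, and these values are descriptions.

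The genes most like Hoxa2 were sought among the probes detected on all 12 arrays, of which the only other Hox probe was Hoxd4. Over the 12 arrays the highest r with Hoxa2 was that of Ahcy (0.989), which encodes adenosylhomocysteinase of the methylation cycle. It was followed by Gemin8 (0.987), of the complex that assembles splicing particles, and Gfm2 (0.985), a mitochondrial elongation factor. This pattern across replicates was shared by 458 of 20059 probes at an r above 0.9. For Hoxd4 the most alike were Pth1r (0.943), the receptor of parathyroid hormone, Ier5 (0.941) and Dhrsx (0.927), and 15 probes had an r above 0.9.

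Partners and neighbours of Hoxa2 were looked at in fixed lists. Meis2, a TALE homeodomain protein that binds DNA beside Hox proteins, had an r of 0.97 with Hoxa2, the highest of the 10 probes of the TALE cofactor list, in which the lowest was -0.82 (Pbx2). Its pair means ranged from 5.97 to 7.56, and it was high in replicates 1 and 3 and low in replicates 5 and 6, as Hoxa2 was. In the list of genes flanking the clusters, the highest values were those of Hibadh (0.93) and Skap2 (0.92), both beside the Hoxa cluster, and the lowest was that of a Hnrnpa1 probe (-0.80). Of all probes detected everywhere, 0.224% had a higher r with Hoxa2 than Meis2, 1.04% than Hibadh and 1.59% than Skap2. These 3 genes were singled out after their values were seen.

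**Figure D4:**
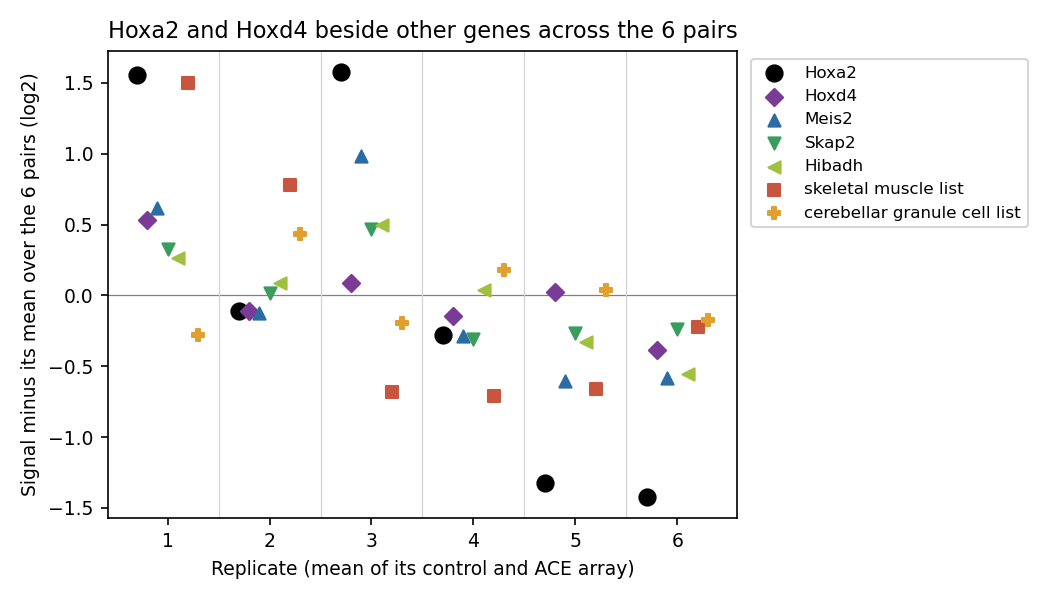
Signal (log2) of each gene or gene list in each replicate, as the mean of its control and ACE array minus its mean over the 6 pairs; symbols within a replicate are set apart for legibility. Hoxa2, Meis2, Skap2 and Hibadh are all above their mean in replicates 1 and 3 and below it in replicates 5 and 6, and the skeletal muscle list is above its mean in replicates 1 and 2.

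For control versus ACE (CvA), the question was whether exposure changed the expression of Hox genes. Of the 32 probes, 13 (40.6%) passed the filter on low signal, beside 78.4% of all probes. No Hox probe, 0 of 13, passed the threshold of limma's paired fit after Benjamini-Hochberg adjustment over 23796 probes (lowest adjusted p = 0.272 for a Hox probe), as no probe did on the whole array (0%). At an unadjusted p under 0.05 there was 1 Hox probe, beside 16.6% of all probes tested (6.9% higher and 9.73% lower in ACE). The share of called Hox probes was thus not above that of all probes.

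That probe was Hoxa2. It was higher in ACE in 6 of 6 pairs, by 0.17 ± 0.07 (log2, SE; limma unadjusted p = 0.0373, adjusted p = 0.272), a step far below the distance between replicates. With the shift to the 75th percentile the difference was 0.09 (unadjusted p = 0.156), and without replicate 5 it was 0.10. With normexp, another background correction that raises low signals by an offset of 50, it was 0.12 (limma unadjusted p = 0.00544, adjusted p = 0.129). An exact signed-rank test on the reported values gave an unadjusted p of 0.03125. Without replicate 2, 3 or 4 the unadjusted p was 0.0747, 0.0640 and 0.0570. In limma it was 0.352 with the replicate as a random block and 0.810 with no replicate block. Hoxd4 was lower in ACE in 5 of 6 pairs, by -0.16 ± 0.10 (unadjusted p = 0.149). It was -0.06 with normexp, -0.27 with the shift to the 75th percentile, -0.25 within the scan batch of replicates 4 to 6 and -0.09 without replicate 4.

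Among the other probes, Hoxc4 had both the largest difference and the largest error. It had 5.24, 3.87, 4.35, 2.55, 3.45 and 2.26 in control and 5.11, 3.98, 2.61, 7.16, 4.71 and 5.40 in ACE. Hoxc4 was well above background on 2 control and 5 ACE arrays, and the difference of 1.21 ± 0.83 was not called (limma adjusted p = 0.492). The widest pair was replicate 4, without which the difference was 0.53. It was 0.31 with normexp and 3.01 within the scan batch of replicates 4 to 6.

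Hoxa3, which acts in the pharyngeal arches, had 3.85, 2.20, 3.70, 1.78, 4.60 and 1.64 in control and 3.71, 4.08, 4.65, 3.81, 3.31 and 4.51 in ACE. The groups overlapped, and the difference was 1.05 ± 0.55 (adjusted p = 0.383), higher in 4 of 6 pairs. It was 0.13 with normexp and 0.69 without replicate 6. Hoxa9, a gene of spinal cord and blood progenitors, had the largest negative difference, -0.78 ± 0.44 (adjusted p = 0.416), lower in ACE in 5 of 6 pairs. It was -0.14 with normexp and -1.21 without replicate 4, and the probe was well above background on 5 control and 2 ACE arrays. Hoxd10, which helps to set the identity of lumbar motor neurons, differed by 0.50 ± 0.40 and was higher in 5 of 6 pairs. It was 0.14 with normexp, 0.13 without replicate 2 and 0.81 without replicate 3.

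Hoxb4 differed by 0.11 ± 0.59, Hoxd1 by -0.31 ± 0.18, Hoxa13 by -0.26 ± 0.12 and Hoxc5 by -0.23 ± 0.25. Of these, Hoxb4 and Hoxc5 had errors larger than the difference. For the 3 remaining probes, Hoxb8, Hoxc6 and Hoxc13, the difference lay between -0.17 and -0.02.

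Over the 13 Hox probes, 5 were higher and 8 lower in ACE, with a median of -0.14 (0.016 with normexp background correction). Over all tested probes 47.8% were higher and the median was -0.0050. The median SE was 0.30 for the Hox probes and 0.049 for all, so a difference of the usual size on this array could not be resolved for most Hox genes. With the shift to the 75th percentile, 34.8% of all probes were higher in ACE and the Hox median was -0.27 beside -0.03 for all. The control array was at the first place and the ACE array at the third place of every slide, so that place and exposure cannot be told apart.

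**Figure D5:**
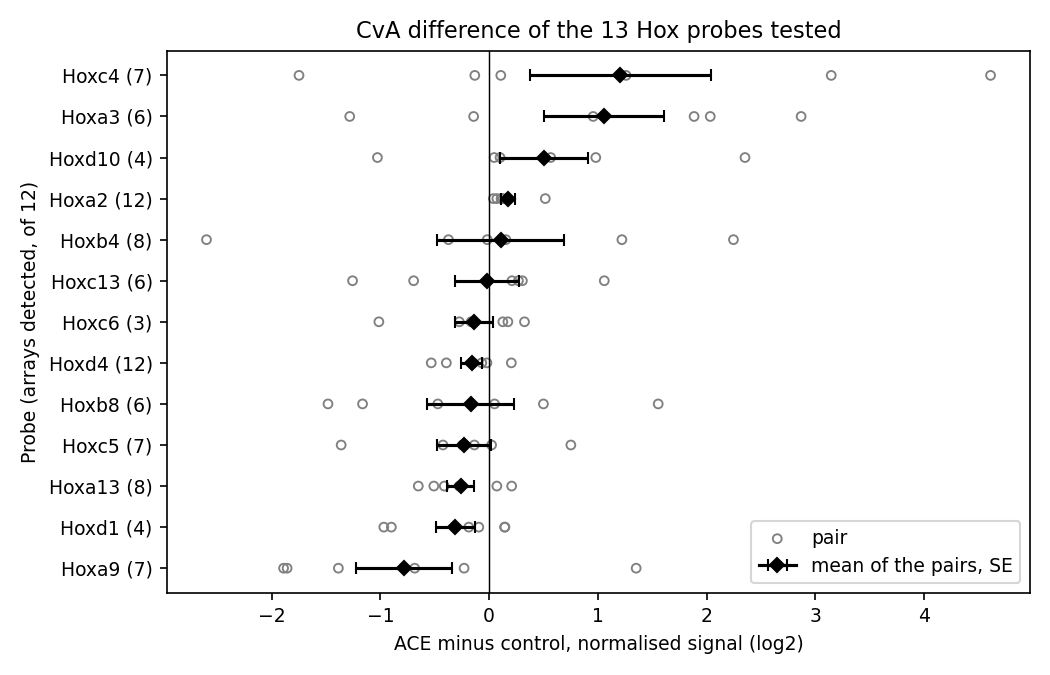
ACE minus control (log2) for the 13 Hox probes tested; open circles are the pairs, diamonds the mean of the pairs with its SE, and the number beside each name is the count of arrays, of 12, on which the probe was well above background. Hoxa2 and Hoxd4 have the shortest error bars, and all probes but Hoxa2 have pairs on both sides of 0.

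The probes of the listed genes that act on and with Hox genes were detected throughout, unlike most Hox probes. All 10 probes of the TALE cofactors (Pbx, Meis and Pknox1), all 16 of the Polycomb proteins, which keep Hox genes silent, and all 7 of the trithorax and H3K27 demethylase list were well above background on all 12 arrays. The share of all gene probes was 66.5%, and the listed Pknox2, Suz12 and Jarid2 had no matching probe. After adjustment 0 were called in each of these 3 lists. At an unadjusted p under 0.05 there were 0 TALE probes, 4 Polycomb probes (a dim Ezh1 probe and Cbx7 higher, Phc1 and Phc2 lower) and 0 of the trithorax list, of 10, 16 and 7 tested, beside 16.6% of all probes tested. The Ezh1 probe differed by 0.26 ± 0.08, and the brighter probe of the gene by 0.04 ± 0.03.

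Retinoic acid, made by the Aldh1a enzymes and broken down by the Cyp26 enzymes, switches Hox genes on in the embryonic hindbrain. Of the 19 probes of its pathway, 16 were detected on all 12 arrays, beside 66.5% of all gene probes. Among the 16 tested, 1 passed the unadjusted threshold (Stra6, the retinol uptake receptor, -0.19 ± 0.05; adjusted p = 0.198), beside 16.6% of all probes tested. Over the 12 arrays the mean of the list had an r of -0.12 with Hoxa2, and its probes ranged from -0.83 (Cyp26b1) to 0.83 (Aldh1a1). Among the other upstream regulators 5 of 8 probes were detected on all arrays, including Egr2, which acts in hindbrain segments, beside the same 66.5% of all gene probes. Of the Cdx genes of the caudal axis, Cdx1 was detected on 12 arrays, Cdx2 on 5 and Cdx4 on 1. Of the 6 tested, 1 probe of Gdf11 passed the unadjusted threshold, 0.23 ± 0.06 (adjusted p = 0.191), and the brighter probe of the same gene differed by -0.01 ± 0.03.

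Markers of the territory in front of the Hox domain formed a pair of lists, and in both the share on all 12 arrays was below the 66.5% of all gene probes. Of the rhombomere 1 and isthmus list, 4 of 8 probes (En2, Pax5, Pax8 and Lmx1b) were on all 12 arrays, and Fgf8, the signal of the embryonic isthmus, was on none. Pax5 was lower in ACE in 6 of 6 pairs, by -0.28 ± 0.03 (unadjusted p = 8.8e-05, adjusted p = 0.141), the lowest p of the lists. Of the forebrain and midbrain list, 4 of 7 probes were on all arrays (Otx1, Otx2, Emx1 and Lhx2), with Emx1 past the unadjusted threshold (-0.20 ± 0.06; adjusted p = 0.198). In the genes flanking the clusters, 19 of 25 probes were on all arrays. There Evx1, at the end of the Hoxa cluster, differed by -0.34 ± 0.13 and Evx2, at the end of the Hoxd cluster, by 0.23 ± 0.06, both past the unadjusted threshold, with 6 and 5 arrays detected. Smug1 and 1 of the Hnrnpa1 probes were the others, so 4 of the 23 tested passed it, beside 16.6% of all probes tested, and 0 were called after adjustment.

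Markers of brainstem and spinal neurons, only some of which carry Hox expression in the animal, were mostly dim. Of their 12 probes 2 (Th and Lhx3) were on all arrays, beside 66.5% of all gene probes. Isl1 of motor neurons and Fev of serotonin neurons were on none. Of the other members, Tph2 of serotonin neurons was on 8 arrays and Slc6a4 on 2, while Chat of cholinergic neurons was on 5 and Mnx1 of motor neurons on 3. The list's mean signal was 4.04 to 4.76 on the control arrays and 3.99 to 4.63 on the ACE arrays. The r of this mean with Hoxa2 over the 12 arrays was 0.68, that of the members detected everywhere was 0.20 (Th) and -0.05 (Lhx3), and the list's part in the level of Hoxa2 was not tested. Of the 6 probes tested, 4 passed an unadjusted p under 0.05, beside 16.6% of all probes tested, with Dbh higher and Chat, Lhx3 and Th lower in ACE, and 0 were called after adjustment.

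Markers of other cell types were uneven between cultures. Skeletal muscle genes were detected on all arrays for 17 of 31 probes, beside 66.5% of all gene probes, among them Mylpf and Acta1 of the muscle fibre, Myog, a regulator of muscle differentiation, and Pax3, which neural progenitors express too, while Myf6 was on none. The mean of the list was 8.46, 8.94, 6.18, 6.04, 6.13 and 6.95 on the control arrays of replicates 1 to 6 and 7.92, 5.99, 5.83, 5.91, 5.92 and 5.98 on the ACE arrays. It was thus high on control 1, control 2, ACE 1 and, less so, control 6, and it was lower on the ACE array in 6 of 6 pairs. Its r over the 12 arrays was 0.31 with Hoxa2 and 0.57 with Hoxd4, and its probes detected everywhere ranged from -0.72 (Pax3) to 0.67 (Tnnt3) with Hoxa2. Replicate 3, high in Hoxa2, was low in muscle genes. Tissue around the hindbrain expresses Hox genes too, and the part of such cells in the Hox signals was not tested.

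The other lists varied less. Meningeal fibroblast genes were detected on all arrays for 10 of 16 probes (list mean 8.40 to 9.42 in control, 8.64 to 9.39 in ACE). Endothelium and pericyte genes were so for 5 of 12 probes (4.95 to 5.42 and 5.02 to 5.23; Tek on none). The mean of this list had an r of -0.25 with Hoxa2, and its probes detected everywhere ranged from -0.54 (Pdgfrb) to 0.97 (Kcnj8). The 10 microglia probes (9.94 to 10.45 and 9.84 to 10.52) and the 8 astrocyte probes (13.77 to 14.50 and 13.69 to 14.45) were detected everywhere, and the r of the astrocyte list was 0.71 with Hoxa2 and 0.78 with Hoxd4. Its probes ranged from -0.26 (Aqp4) to 0.93 (Aldh1l1) with Hoxa2, and probes of the same gene differed (-0.26 to 0.72 for Aqp4). The mean of the fibroblast list had an r of 0.48 with Hoxa2. For the microglia, granule cell and Purkinje cell lists it was -0.36, -0.35 and -0.34. Past the unadjusted threshold, which 16.6% of all probes tested passed, were 7 of 23 muscle probes tested (6 lower and 1 higher in ACE), 0 of 15 fibroblast, 1 of 8 endothelium and pericyte, 3 of 10 microglia, 0 of 8 astrocyte, 1 of 8 granule cell and 2 of 9 Purkinje cell probes. After adjustment 0 were called in each of these lists.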

How the data were processed

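The members and all gene lists were chosen with earlier results of these data known. The deposited intensities were read from 1-dye scans. Per the file headers, Agilent Feature Extraction was version 11.0.1.1 in replicate 1 and version 11.5.1.1 in replicates 2 to 6, and its processed intensity was free of background but not scaled between arrays. The authors also deposited log2 values, quantile normalised and centred per probe, and over 23580 probes each array's column correlated at 0.995 to 0.999 with centred values made here. Its median was -0.020 to 0.017 per array.

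Here the log2 processed intensity was quantile normalised, outlier spots were left out (447 probe values) and spots of a probe averaged. Probes were tested that exceeded their array's 20th percentile on 7 or more arrays, with 4 or more complete pairs, which kept 23796 of 30367. CvA was tested with limma 3.58.1 (R 4.3.3) with the replicate as a block and Benjamini-Hochberg adjustment, two-sided. The study's methods pair cultures by cell lot. Deviations from the group means correlated at 0.45 to 0.91 between arrays of the same number and at -0.44 to 0.39 otherwise. Arrays of the same number also shared a slide and a scan, so these values cannot single out the cell lot. Each of the 6 slides held 1 replicate, and each of 4 scan batches held whole slides. The fit was tested on simulated data. Files were read with data.table (version 1.17.8), and figures drawn with matplotlib 3.10.9 in Python 3.11.15.

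Named by rule were the Hox genes detected on all arrays, up to 5 rising and 5 falling Hox genes with the largest difference, the 3 genes most like each Hox gene detected everywhere, and up to 4 genes of each list by difference or, for cell types, by signal. Other named genes were chosen after their values were seen. Some genes are counted in the totals and not reported here by name. List symbols were matched to the array's gene names directly or through synonyms of RefSeq gene names, and Pknox2, Suz12, Jarid2, En1, Cbx1 and Ttll6 had no match. Alternatives changed the normalisation, background correction, source of values, filter, block, test, detection call, replicates and scan batch. With 6 arrays per group, precision is limited by their number.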

Additional observations from a re-analysis of the deposited data

Results flagged for a closer look

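In 66 groups of 6 arrays, the 32 Hox probes in control and in ACE and the number of detected Hox probes per array, the most extreme array was compared with its nearest neighbour by Dixon's criterion. It stood apart in 10 groups (15.2%), where chance gives about 5% for normal values. By probe, this was 15.6% of the Hox groups beside 10.7% over all gene probes, and 19.4% beside 19.2% among probes detected on 3 arrays or fewer. In 9 of the 10 the array was brighter than the rest, and in 2 it belonged to replicate 1.

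Of the probes that were tested in CvA, Hoxb4 stood out with 8.03 on ACE 3, beside 5.25 on the next array. The second probe of Hoxc5, which was not tested, had 8.12 on control 3 and 3.10 on the next, while the first probe of Hoxc5 had 3.70 there. On ACE arrays, Hoxd13 had 6.61 in replicate 6 (next 2.98), Hoxb9 6.15 in replicate 5 (next 2.40) and Hoxa11 5.23 in replicate 4 (next 2.12). Each of these 3 probes was detected on 3 arrays or fewer.

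The remaining values were lower. Hoxa6 had 2.52 on control 5 (next 1.61) and 1.74 on ACE 5 (next 1.35), so the arrays of replicate 5 were the highest in both groups. Hoxb6 had 2.94 on control 1 (next 2.25) and Hoxb13 2.24 on ACE 1 (next 1.43). Hoxb2 had 1.39 on control 2, below the next lowest at 3.04.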

How the results depend on the processing

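No Hox probe was called at an adjusted p under 0.05 under any setting run (0 throughout). The number at an unadjusted p under 0.05, 1 as reported, was 2 with the shift to the 75th percentile (Hoxd1 and Hoxd4), 2 within the scan batch of replicates 4 to 6 (Hoxc4 and Hoxc6), and 0 to 2 when single replicates were left out. As to the pairing, it was 0 with no replicate block and 3 with the replicate as a random block (Hoxa3, Hoxa9 and Hoxa13). The median difference of the tested Hox probes, -0.14, was -0.27 with the shift to the 75th percentile, 0.016 with normexp background correction, -0.019 with no filter on low signal, and -0.23 to -0.08 with single replicates left out. The sign turned for Hoxc6 (0.02 with normexp, 0.21 within the scan batch), Hoxc13 (0.02 with normexp) and Hoxb4 (-0.47 within the scan batch). It also turned in the ranges over left-out replicates for Hoxb8 (-0.51 to 0.093), Hoxb4 (-0.32 to 0.65), Hoxc6 (-0.23 to 0.037) and Hoxc13 (-0.23 to 0.23). With normexp, Hoxd1 was -0.06, Hoxa13 -0.08 and Hoxc5 -0.06, and with single replicates left out Hoxd1 was -0.40 to -0.18 and Hoxc5 -0.43 to -0.006. Larger differences were found for Hoxd1 within the scan batch (-0.58) and for Hoxa13 with the shift to the 75th percentile (-0.43). The cause was not tested.

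The count detected on all arrays, 2, was 6 above the 20th percentile and 10 with positive and significant signal, and stayed 2 (Hoxa2 and Hoxd4) without each replicate. The count on no array, 6, was 0 with positive and significant signal and 6 to 12 with single replicates left out. The share of Hoxa2 variance between replicates was 99.57% with group means subtracted, 99.62% with the shift to the 75th percentile and 98.6% to 99.8% with single replicates left out, a movement judged against the spread of the latter values. The r of Hoxa2 and Hoxd4 was 0.40 to 0.77 with single replicates left out, lowest without replicate 1. The median SE of the tested Hox probes, 0.30 beside 0.049 for all, limits what could be resolved.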

Other observations

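Single bright arrays were counted among the dim probes. Of the probes with no missing value that were detected on 3 arrays or fewer, 2 of 18 Hox probes (11.1%) had their brightest array more than 2 (log2) above the next, beside 537 of 5916 of all such probes (9.08%). The 2 were Hoxb9, with 6.15 on ACE 5 and 3.82 on the next array, and Hoxd13, with 6.61 on ACE 6 and 3.22 on the next. This definition was chosen after seeing the data.

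Of the 12 Hox probes detected on 1 to 3 arrays, 10 (83.3%) were detected on at least 1 array of replicate 1, beside 78.3% of the 3754 such probes in all.

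In the principal components of all tested probes with no missing value, component 1 held 40.1% and component 2 19.5% of the variance over the 12 arrays. The size of r with component 1 was 0.50 for Hoxa2 and 0.68 for Hoxd4, and with component 2 it was 0.80 and 0.25.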
